A study of Mus musculus with 5 samples.

Results

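The genes Vip, Penk, Sst, Npy, Tac1, Tac2, Cck and Crh encode precursors of neuropeptides made by retinal amacrine cells, and they were chosen by symbol from the deposited gene counts. All 8 were among the 33636 genes of the table, with 1 row each, and all 8 were among the 17432 genes tested, for which 2 or more libraries held over 10 counts. RNA came from retinas of male wild-type C57BL6/J mice, a common inbred strain, collected at P42 (postnatal day 42). In each mouse a diffuser goggle, which blurs the image and so drives a young eye towards myopia, covered the right eye from P28, and the open left eye was the control. The 2 form-deprived (FDM) libraries were from eyes goggled for 2 weeks and the 3 control libraries from contralateral eyes, all from animals on the same light-dark cycle. The goggle was worn by every animal, so a control eye was the open eye of a treated mouse and not an eye of an untreated one.

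FDM 1 and Control 1 share a mouse number. The second FDM library carries the number 2 in the sample labels but 3 in the count table and in the supplement of the study. The number 3 is used here, which pairs FDM 3 with Control 3 and leaves Control 2 without a partner, and the pairing of this library was not settled by the counts. Refractive error at P42, in dioptres (D), was 0.976 D in FDM 1 and 0.2745 D in FDM 3. It was 2.4455 D, 3.1505 D and 2.465 D in Control 1, Control 2 and Control 3.

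Amacrine cells are inhibitory interneurons of the inner retina, and many subtypes release a peptide beside GABA or glycine. Each peptide is cut from a larger precursor, stored in dense-core vesicles and released to act on G protein-coupled receptors, often at a distance from the releasing cell. In bulk tissue such as this, fewer cells of a type and less RNA per cell cannot be told apart.

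Several of these precursor genes are known for control by cyclic AMP through the cyclic AMP response element, and the somatostatin promoter is the textbook example. The RefSeq promoter windows of GRCm38.p6, 250 bases before to 50 bases after each start, matched 6 of the 8 members (Vip, Tac1, Tac2, Sst, Npy and Cck). The windows were searched on both strands for the element TGACGTCA and for its first 5 bases, TGACG, which lie within it on either strand. The last 100 bases before the start are shown 5′ to 3′ for Sst, whose window held the full element, and for Vip, Tac1 and Tac2, which were chosen after their values were seen because the expression results turn on them. Capitals mark the full element in Sst and TGACG, or its reverse complement CGTCA, in the others.
Sst: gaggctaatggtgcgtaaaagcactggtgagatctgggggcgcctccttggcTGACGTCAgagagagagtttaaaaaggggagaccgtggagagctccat
Vip: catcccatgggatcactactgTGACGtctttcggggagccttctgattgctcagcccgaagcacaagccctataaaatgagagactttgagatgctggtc
Tac1: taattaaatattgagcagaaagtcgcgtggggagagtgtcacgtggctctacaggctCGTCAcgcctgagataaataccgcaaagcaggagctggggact
Tac2: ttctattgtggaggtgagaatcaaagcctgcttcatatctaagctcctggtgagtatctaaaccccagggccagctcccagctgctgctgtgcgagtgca

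These stretches lie at chr16:23890845-23890944 on the minus strand (Sst), and on the plus strand at chr10:5639118-5639217 (Vip), chr6:7554961-7555060 (Tac1) and chr10:127724378-127724477 (Tac2). The starts are those of RefSeq, and for Sst and Tac1 the stretch lies inside the GENCODE gene position given below. The full element was in 1 of the 6 member windows and in 1.79% of all 32851 windows. TGACG on either strand was in 4 of the 6, those of Sst, Vip, Tac1 and Cck, and in 20.8% of all windows. The Tac2 window held neither form. These matches describe letters only.

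The libraries held 40599047 to 56534931 estimated counts each. Levels are given as CPM, in which the counts of a library are scaled to its total and to its TMM factor (trimmed mean of M values). The labelled tissue was checked on cone markers such as Arr3, which summed to between 1106 and 1256 CPM, and bipolar cell markers such as Grm6, which summed to between 1356 and 1411 CPM. None (0) of the cone, bipolar, horizontal, ganglion or Müller cell markers passed the edgeR test described below at an unadjusted p under 0.05. Other tissues of the eye stood apart by library. RPE (retinal pigment epithelium) markers summed to 209 CPM in Control 2 and 258 CPM in Control 3, and to between 53.6 and 56.0 CPM in the other 3 libraries. Lens markers summed to 1958 CPM in FDM 3, against 2.38 to 17.9 CPM elsewhere, and muscle markers to 61.0 CPM in Control 3, against 9.32 to 10.8 CPM elsewhere. In that test 5 of 10 RPE markers were called lower in FDM eyes, 7 of 7 lens markers higher and 0 of 5 muscle markers either way. The part of these tissues in the peptide results was not tested, and results are given with each library left out.

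To ask which peptide genes differed in the goggled eye, the quasi-likelihood test of edgeR was run on the counts of all genes, and a gene was called at an unadjusted p under 0.05, the threshold of the study. Log2 fold changes are FDM minus control, with their standard error (SE). Of the 8 peptide genes, Tac2, Vip, Tac1 and Penk (4) were called, all lower in FDM eyes, and 0 were called higher. Of all genes tested, 1.61% were called, 1.16% lower and 0.453% higher. All 8 had a log2 fold change below 0, as had 55.6% of all genes, and the median of the 8 was -0.44, against -0.01 over all genes. After Benjamini-Hochberg adjustment over all genes, 0 members and 0 genes in all passed in edgeR, where the adjusted p of every gene named below was 1.0. DESeq2's Wald test left 1 member, Tac2, with an adjusted p of 0.0338. How many of all genes passed adjustment in DESeq2 was not counted, so this value has no background. DESeq2 called 3 members lower at the unadjusted threshold, against 0.78% of all genes. In edgeR with a library left out, the members called lower numbered 4 without Control 1, 3 without Control 2, 2 without Control 3, 3 without FDM 1 and 4 without FDM 3. The shares of all genes called lower in those 5 fits were 3.2%, 1.12%, 0.551%, 0.62% and 0.941%. The members were chosen with earlier results of these libraries known, so their count is not independent of those results. In the plot of fold changes, Penk had the largest difference and by far the widest error.

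**Figure D1:**
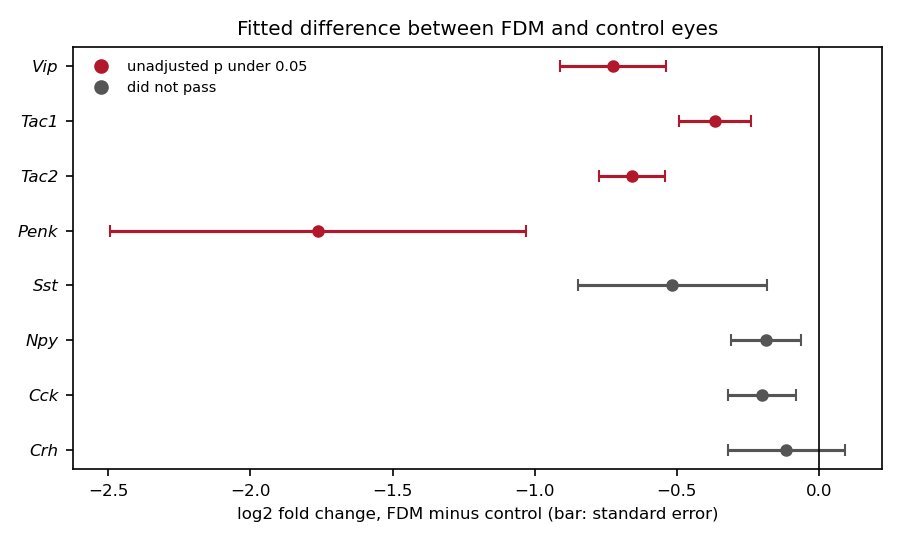
Log2 fold change (FDM minus control, x axis) of each peptide gene (y axis) from edgeR, with its SE as a bar and red points for an unadjusted p under 0.05. All 8 points lie left of 0, from -0.11 for Crh to -1.76 for Penk, and 4 are red.

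Vip encodes vasoactive intestinal peptide, made by a class of GABAergic amacrine cells and acting mainly through receptors that raise cyclic AMP. The gene (ENSMUSG00000019772, chromosome 10, 5639218 to 5647617, plus strand) had 261 counts in FDM 1 and 342 in FDM 3, and 337, 659 and 594 in Control 1, Control 2 and Control 3. In CPM these were 6.02 and 7.11 in FDM eyes and 8.44, 11.6 and 12.5 in control eyes, so that the groups did not overlap, with Control 1 the nearest to the FDM eyes. The means were 6.57 ± 0.771 CPM (SD, n = 2) and 10.8 ± 2.13 CPM (SD, n = 3). Vip fell by 0.72 on the log2 scale in FDM eyes (SE 0.19, unadjusted p = 0.00557 from edgeR), and it stood at rank 18 of all genes by p. It was called in 14 of 14 alternative fits, including each library left out in turn, with log2 fold changes from -0.87 to -0.60.

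The tachykinins are excitatory peptides. Tac1 encodes substance P and neurokinin A, and Tac2 encodes neurokinin B, the preferred ligand of Tacr3. Tac2 (ENSMUSG00000025400, chromosome 10, 127724478 to 127731768, plus strand) had 538 and 587 counts in FDM 1 and FDM 3, against 680, 1201 and 955 in Control 1, Control 2 and Control 3. The FDM eyes lay close together, at 12.4 and 12.2 CPM, and below every control eye, at 17.0, 21.1 and 20.1 CPM. Tac2 fell by 0.66 on the log2 scale (SE 0.12, unadjusted p = 0.000712 from edgeR), with the smallest p of all genes tested, and was called in 14 of 14 alternative fits. Fitted with the mouse as a block, the difference was -0.59 with an adjusted p of 0.0208 from edgeR.

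Tac1 (ENSMUSG00000061762, chromosome 6, 7554879 to 7565834, plus strand) had 455 and 577 counts in FDM 1 and FDM 3, and 525, 811 and 764 counts in Control 1, Control 2 and Control 3. Its levels of 10.5 and 12.0 CPM in FDM eyes lay below the 13.1, 14.2 and 16.1 CPM of control eyes, without overlap but with a smaller gap than for Tac2. The means were 11.2 ± 1.06 CPM (SD, n = 2) and 14.5 ± 1.49 CPM (SD, n = 3). Tac1 fell by 0.37 on the log2 scale (SE 0.13, unadjusted p = 0.0215 from edgeR). This call rested on single libraries: the unadjusted p from edgeR was 0.157 without FDM 1, 0.0760 without Control 3 and 0.0574 with a block by the label numbers, and the other 11 of 14 alternatives kept it.

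Penk encodes proenkephalin, the precursor of the enkephalins, opioid peptides that act on the delta and mu receptors. The gene (ENSMUSG00000045573, chromosome 4, 4133531 to 4138819, minus strand) had 228 and 651 counts in FDM 1 and FDM 3, and 316, 2890 and 1758 counts in Control 1, Control 2 and Control 3. In CPM the FDM eyes were at 5.26 and 13.5 and the control eyes at 7.91, 50.7 and 37.0. Control 2 and Control 3 stood far above the other 3 libraries, and the groups overlapped, since Control 1 lay below FDM 3. The means were 9.40 ± 5.85 CPM (SD, n = 2) and 31.9 ± 21.8 CPM (SD, n = 3). Penk fell by 1.76 on the log2 scale (SE 0.73, unadjusted p = 0.0458 from edgeR).

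The Penk call held in 8 of 14 alternatives. It was lost without FDM 1 (log2 fold change -1.24, unadjusted p = 0.168 from edgeR), without Control 2 (-1.25, unadjusted p = 0.127 from edgeR) and without Control 3 (-1.64, unadjusted p = 0.117 from edgeR). It was also lost in DESeq2 (unadjusted p = 0.0791) and in limma with either pseudocount. Without FDM 3, in which Penk was higher than in FDM 1, the log2 fold change was -2.60, and without Control 1 it was -2.22. Among control eyes the highest and lowest Penk levels differed by 2.60 on the log2 scale, and 0.218% of the genes tested had a wider control range. For Vip and Tac2 that range was 0.54 and 0.30. The position of Penk overlaps that of 1 other annotated gene, ENSMUSG00000085996, on the other strand, and overlap of their exons was not checked. The labels name the TruSeq RNA v2 kit, which does not mark strand, and with it reads from both genes could not be told apart where exons overlap.

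**Figure D2:**
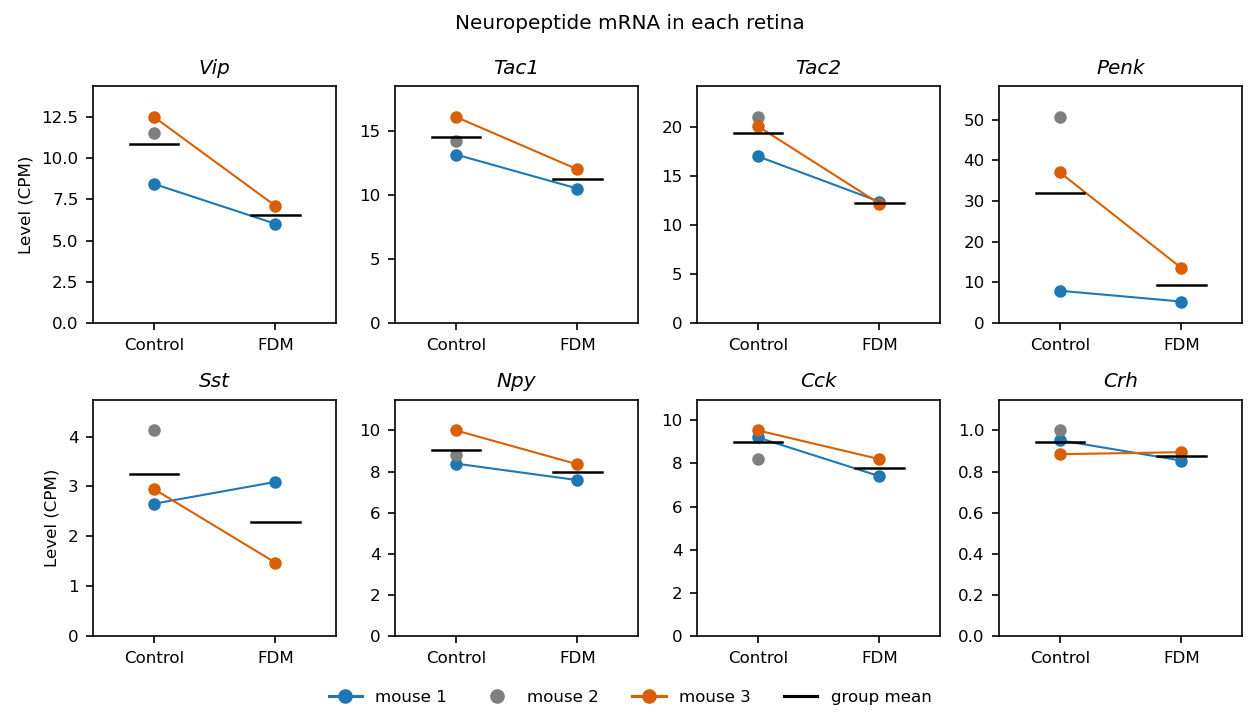
TMM-scaled CPM (y axis, each panel with its own scale from 0) of the 8 peptide genes in the FDM and control libraries. Each library is 1 point coloured by mouse number, lines join eyes with the same number, and a bar marks each group mean. For Vip, Tac1, Tac2 and Npy both FDM points lie under all 3 control points, while for Penk Control 2 and Control 3, at 50.7 and 37.0 CPM, stand above the other libraries.

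The other 4 members were not called. Npy, neuropeptide Y, acts through receptors that lower cyclic AMP. The gene (ENSMUSG00000029819, chromosome 6, 49822710 to 49829507, plus strand) was at 7.59 and 8.36 CPM in FDM 1 and FDM 3 and at 8.39, 8.81 and 10.003 CPM in Control 1, Control 2 and Control 3. Its groups did not overlap, but FDM 3 and Control 1 were nearly equal, and the log2 fold change was -0.19 (SE 0.12, unadjusted p = 0.177 from edgeR). With Npy, 4 of the 8 members had both FDM eyes below all control eyes, as had 6.67% of all genes tested, and 0 members had both above, as had 3.97% of genes. Cck encodes cholecystokinin, and the gene (ENSMUSG00000032532, chromosome 9, 121489824 to 121495694, minus strand) was at 7.40 and 8.19 CPM in FDM eyes and at 9.19, 8.19 and 9.52 CPM in control eyes. FDM 3 and Control 2 were level for Cck, and its log2 fold change was -0.20 (SE 0.12, unadjusted p = 0.139 from edgeR). With the mouse as a block Cck was called, at -0.26 (unadjusted p = 0.0301, adjusted p = 0.654 from edgeR), and with a block by the label numbers it was not, at -0.15 (unadjusted p = 0.364 from edgeR).

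Sst encodes somatostatin, an inhibitory peptide whose receptors lower cyclic AMP. The gene (ENSMUSG00000004366, chromosome 16, 23889573 to 23890958, minus strand) had 134 and 71 counts in FDM 1 and FDM 3, and 106, 235 and 140 counts in Control 1, Control 2 and Control 3. At 3.09 CPM, FDM 1 lay above Control 1 and Control 3, at 2.65 and 2.95 CPM, while FDM 3, at 1.48 CPM, was the lowest of the libraries. The log2 fold change of -0.52 (SE 0.33, unadjusted p = 0.164 from edgeR) did not pass. Without FDM 1 it was -1.14 (unadjusted p = 0.00959 from edgeR) and without FDM 3 it was -0.07, so the value rested on which FDM eye was kept. A block by mouse left Sst uncalled (-0.37, unadjusted p = 0.204 from edgeR), and a block by the label numbers called it (-0.63, unadjusted p = 0.0108, adjusted p = 0.767 from edgeR). Crh, corticotropin-releasing hormone (ENSMUSG00000049796, chromosome 3, 19693401 to 19695396, minus strand), was the lowest member, with 37 and 43 counts in FDM eyes and 38, 57 and 42 in control eyes. Counting error alone was 16.4% for the 37 counts, wider than the gap between the group means of 0.874 ± 0.0287 CPM (SD, n = 2) and 0.945 ± 0.0580 CPM (SD, n = 3), and a difference (log2 fold change -0.11, SE 0.21, unadjusted p = 0.599 from edgeR) was not detectable at this depth.

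Comparing the eyes of 1 mouse leaves out differences between animals, and 2 pairs allow no test of a gene by permutation. Ratios of FDM to control CPM are given with 95% intervals that cover counting error only. Vip was at 0.713 of its control eye in the mouse of FDM 1 (interval 0.605 to 0.841) and at 0.568 in the mouse of FDM 3 (0.496 to 0.650). Tac2 was at 0.729 (0.650 to 0.817) and 0.607 (0.547 to 0.673). Both genes were thus lower in the goggled eye of each mouse by more than counting error. Every ratio for the second mouse, here and below, rests on the pairing of FDM 3 with Control 3. By the label numbers FDM 3 would be set against Control 2 instead, at the CPM given above, where Vip, Tac2, Tac1, Penk, Npy, Sst and Crh were also lower in FDM 3 and Cck was level.

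Tac1 was at 0.798 (interval 0.702 to 0.907) and 0.746 (0.668 to 0.832) of the control eye, the most alike of the called members between mice. Penk was at 0.665 (0.558 to 0.790) and 0.366 (0.334 to 0.400). For these 4 genes, between 0.878% and 3.79% of all genes tested lay further below the control eye in the first mouse, and between 0.316% and 2.97% in the second. The middle 90% of all genes ran from -0.27 to 0.28 on the log2 scale in the first mouse and from -0.30 to 0.27 in the second.

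Of the members not called, Cck was at 0.806 (interval 0.691 to 0.938) and 0.861 (0.750 to 0.987) of the control eye, and Npy at 0.905 (0.774 to 1.06) and 0.836 (0.730 to 0.956). Sst parted the mice, at 1.16 (0.896 to 1.52) in the first and 0.501 (0.371 to 0.671) in the second. Crh was at 0.897 and 1.01, with wide intervals that both include 1. In all, 6 of the 8 members were lower in the goggled eye of both mice, as were 30.3% of all genes tested, and 0 were higher in both, as were 24.7% of genes.

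In the first mouse the RPE markers summed to 55.4 CPM in the FDM eye and 56.0 CPM in the control eye, and the lens markers to 2.45 and 2.38 CPM. Single RPE markers were not all level in that pair. On the log2(CPM + 0.5) scale, FDM minus control was -1.02 for Slc26a4 and -0.59 for Kcnj13, but 0.70 for Pmel and 0.36 for Tyrp1. The other RPE markers lay between -0.59 and 0.36. In the same pair Vip, Tac2, Tac1 and Penk were at the ratios given above. In the second mouse these sums differed between the eyes, at 53.6 and 258 CPM for RPE and 1958 and 10.2 CPM for lens. With the mouse as a block, a fit with 1 residual degree of freedom, 5 members were called lower, the 4 above and Cck, against 3.67% of all genes called lower and 7.23% in either direction. After adjustment 2 members passed in that fit, Tac2 and Penk, against 0.31% of genes. Penk, at -1.15, had an adjusted p of 0.0173 from edgeR, and Vip, at -0.66, had an adjusted p of 0.0696. A block by the label numbers called 4 members, Tac2, Vip, Penk and Sst. The share of all genes called in that fit was not computed, so this count has no background.

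**Figure D3:**
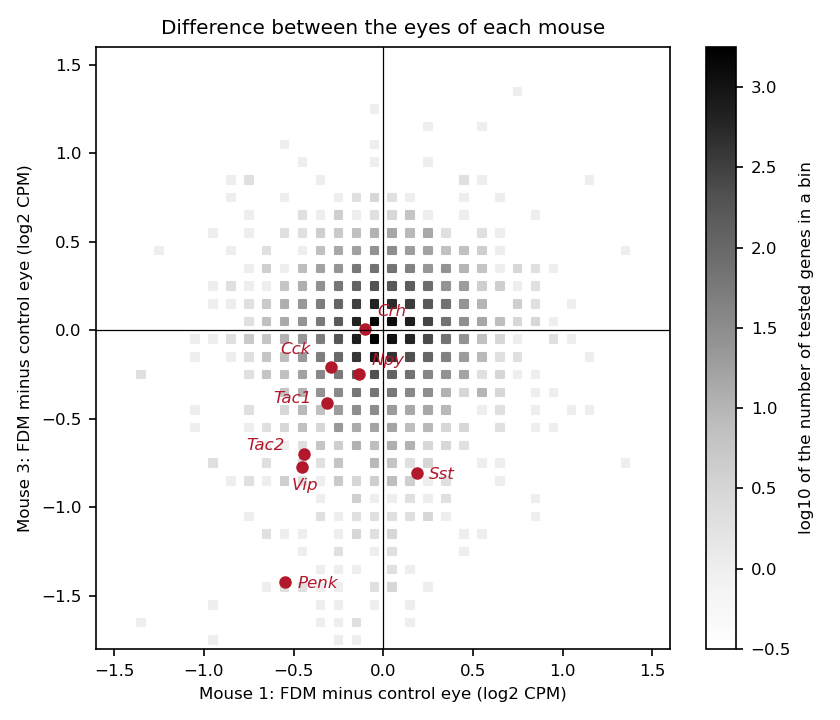
Difference between the FDM and the control eye on the log2(CPM + 0.5) scale in the mouse of FDM 1 and Control 1 (x axis) and in the mouse of FDM 3 and Control 3 (y axis), with shading for the number of tested genes in each bin of 0.1 and labelled points for the 8 peptide genes. Vip, Tac2, Tac1, Penk, Cck and Npy lie below 0 on both axes, Sst is above 0 in the first mouse only, and genes beyond the axis limits are not drawn.

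Across the libraries FDM 1 was the lowest for 6 members and FDM 3 for the other 2, Sst and Tac2. The shares of all genes tested that were lowest in these libraries were 16.7% and 10.4%. Control 2 was the highest for Penk, Sst, Tac2 and Crh, and Control 3 for Vip, Npy, Tac1 and Cck. Of all genes tested, 31.4% were highest in Control 2 and 20.2% in Control 3. Control 1 was the lowest control eye for 6 of the 8 members (75%), against 35.5% of all genes. RPE markers were likewise lower in Control 1 than in the other control eyes, by the sums given above.

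Summed over the 8 members, FDM 1 and FDM 3 held 53.1 and 63.8 CPM, and Control 1, Control 2 and Control 3 held 67.7, 120 and 109 CPM. Penk made up 9.90% and 21.2% of these sums in the FDM eyes and 11.7%, 42.4% and 33.9% in the control eyes. Without Penk the sums were 47.9 and 50.2 CPM in FDM eyes and 59.8, 69.0 and 72.1 CPM in control eyes, so the FDM eyes lay below the control eyes with and without it.

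To compare levels between genes, CPM was divided by the length of each gene's exons in kilobases (kb). On this scale Npy had the highest mean over the 5 libraries, 15.2 CPM per kb, followed by Penk at 14.0 and Tac2 at 12.0. These 3 did not hold a fixed order, as Npy exceeded Penk in 3 libraries and Penk exceeded Tac2 in 2, with Penk running from 3.22 to 31.0 CPM per kb. Cck followed at 6.51 CPM per kb, below Tac2 in 5 of 5 libraries. Sst at 3.96 and Tac1 at 3.88 CPM per kb changed places between libraries, Vip at 2.68 was below Tac1 in 5 of 5, and Crh at 0.694 was the lowest throughout.

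The receptors were taken as a list of 22 genes, of which 17 were tested. Sstr3, Sstr2 and Cckar (3) were called lower and 0 higher, against 1.16% of all genes called lower, and the median log2 fold change was -0.11. Sstr3, a somatostatin receptor, had 37 and 31 counts in FDM 1 and FDM 3, and 53, 89 and 49 in Control 1, Control 2 and Control 3. It was lower in both FDM eyes than in any control eye (log2 fold change -0.81, SE 0.27, unadjusted p = 0.0181 from edgeR).

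Sstr2, another somatostatin receptor, had 149 and 172 counts in FDM eyes and 182, 248 and 206 in control eyes. Its groups did not overlap in CPM, at 3.51 ± 0.0984 (SD, n = 2) and 4.42 ± 0.124 (SD, n = 3), with a log2 fold change of -0.33 (unadjusted p = 0.0367 from edgeR). Cckar, a cholecystokinin receptor, rested on few reads, with 9 and 11 counts in FDM eyes and 22, 26 and 14 in control eyes (log2 fold change -0.97, unadjusted p = 0.0410 from edgeR). The mouse block left Sstr3 and Sstr2 called and Cckar not, and without FDM 3 the receptors called numbered 0.

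The tested receptors of the called peptides were not among them. Vipr2, a receptor of vasoactive intestinal peptide and at 12.1 CPM per kb the highest receptor of the list, had a log2 fold change of 0.09 (unadjusted p = 0.388 from edgeR). Tacr3, the neurokinin B receptor, was at 5.85 CPM per kb with a log2 fold change of -0.09 (unadjusted p = 0.466 from edgeR). The opioid receptors were close to the lower limit of these data, Oprm1 at 0.200 CPM, with Oprd1 and Oprk1 below the count filter. For the remaining peptides the receptors with the highest mean CPM were Crhr1, Cckbr, Sstr2 and Npy1r, at 4.43, 2.97, 1.89 and 1.26 CPM per kb.

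Of 17 genes for cutting and storing peptides, all tested, 1 was called lower and 0 higher, against 1.16% and 0.453% of all genes. The gene called was Vgf, a granin family protein of dense-core vesicles. The median log2 fold change of the list was -0.06. Vgf had 1198 and 1517 counts in FDM 1 and FDM 3, and 1643, 1765 and 2023 in Control 1, Control 2 and Control 3 (log2 fold change -0.37, SE 0.15, unadjusted p = 0.0409 from edgeR). Its call was lost without FDM 1, FDM 3, Control 1 or Control 3 and with a block by the label numbers, and of the libraries left out only Control 2 kept it. The mouse block called 3 genes, all lower, against 3.67% of all genes called lower. In that fit Vgf had an adjusted p of 0.0118 from edgeR. Cpe, the carboxypeptidase that trims peptide ends, and Scg2, secretogranin II, were the most abundant by CPM, with log2 fold changes of -0.05 and -0.17 (unadjusted p = 0.632 and 0.0923 from edgeR).

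Of 29 further genes, listed as neuropeptides though Crhbp among them encodes a binding protein, 15 were tested. Of these, 0 were called in edgeR, DESeq2 or limma at an unadjusted p under 0.05, with a median log2 fold change of -0.12. The highest by CPM were Cartpt, which encodes the CART peptide, and Pdyn, the dynorphin precursor, with log2 fold changes of -0.26 and -0.33 (unadjusted p = 0.105 and 0.0597 from edgeR). A block by mouse called 2 of the 15 lower, Cartpt and Crhbp (unadjusted p = 0.00124 and 0.0186 from edgeR), against 3.67% of all genes. Crhbp encodes a protein that binds Crh and was named after its values were seen. Crhbp had 189 and 405 counts in FDM 1 and FDM 3, and 174, 1141 and 673 in Control 1, Control 2 and Control 3. As for Penk, Control 2 and Control 3 were the high libraries.

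General amacrine markers were read from a list of 28, of which 27 were tested. At an unadjusted p under 0.05, 0 were called in edgeR, 0 in DESeq2 and 1 in limma. The median log2 fold change was -0.01, 0 had both FDM eyes below all control eyes, against 6.67% of all genes, and 2 (Tfap2b and Prdm13, named after their values were seen) had both above, against 3.97%. The 28 markers summed to between 2363 CPM in FDM 1 and 2527 CPM in Control 3. Pax6, a transcription factor of amacrine and other retinal cells, was among the highest by CPM, with a log2 fold change of -0.19 (unadjusted p = 0.157 from edgeR). The difference between the peptide genes and these markers was not itself tested. The block by mouse called 2 of the 27 markers, Calb2 lower and Lhx9 higher, a share close to the 7.23% of all genes.

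**Figure D4:**
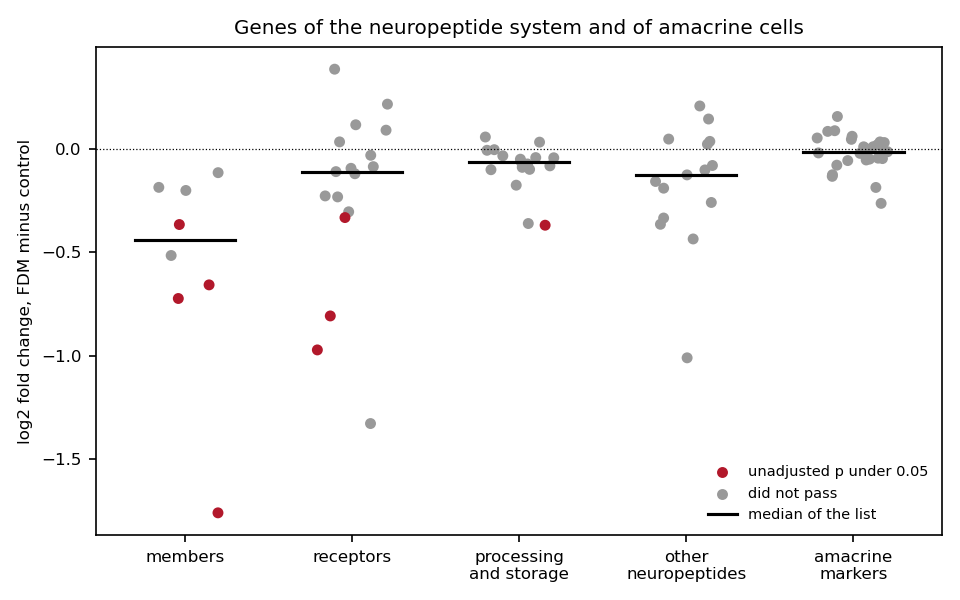
Log2 fold change (FDM minus control, y axis) of each tested gene in 5 lists, with red points for an unadjusted p under 0.05 in edgeR and a bar at each list's median. The 8 peptide genes have a median of -0.44, while the medians of the other 4 lists lie between -0.12 and -0.01.

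Likeness between genes was measured as the root mean square distance between their log2(CPM + 0.5) values over the 5 libraries, each centred on its own mean, among 14814 genes with a mean of at least 1 CPM. The distance uses the same libraries as the comparison of the groups, so a near gene shares the contrast too. Vip and Tac2 were alike, at a distance of 0.126, with 8 genes nearer to Vip and 7 nearer to Tac2. The nearest to Vip were A2m, Perp and 4930523C07Rik, at 0.0905, 0.0981 and 0.106. The nearest to Tac2 were Art3, Suclg2 and Lcor, at 0.0900, 0.0919 and 0.0966. For Tac1 they were Gng4, Csrnp1 and Spata4, at 0.0516, 0.0534 and 0.0550, and the nearest member was Npy, at 0.0897, with 59 genes nearer.

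Penk lay far from the other members by this distance, with Vip the nearest at 0.886. The distance also grows with the size of the differences between libraries. The root mean square of the centred values was 1.21 for Penk and 0.381 for Vip. The nearest genes to Penk were Best2, Cldn2 and Ltbp2, at distances of 0.139, 0.171 and 0.220. Best2, a chloride channel known from the ciliary body, had 8 and 55 counts in FDM 1 and FDM 3, and 14, 295 and 140 in Control 1, Control 2 and Control 3. Cldn2, a tight junction protein, had 6 and 62 counts in FDM eyes and 28, 433 and 217 in control eyes. In both genes, as in Penk, Control 2 was the highest, followed by Control 3 and FDM 3.

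After these values were seen, 4 further genes known from the ciliary body, the tissue at the rim of the retina that makes aqueous humour, were read out as a description (Fbn1, Wfdc1, Msx1 and Otx1). Fbn1 was at 13.7 and 18.6 CPM in FDM 1 and FDM 3, and at 13.5, 39.2 and 26.98 CPM in Control 1, Control 2 and Control 3. Otx1 was at 0.208 and 0.686 CPM in FDM eyes and at 0.326, 1.63 and 2.11 CPM in control eyes. Control 2 and Control 3 were the highest libraries for all 4 genes, Control 2 first for Fbn1 and Wfdc1 and Control 3 first for Msx1 and Otx1. Wfdc1 was nearly level between Control 3 and FDM 3, at 5.29 and 5.18 CPM, and Msx1 rested on 6 to 28 counts. The share of all genes highest in both of these control libraries was not computed. In the first mouse, where Penk was at 5.26 CPM in the FDM eye and 7.91 CPM in the control eye, Best2 was at 0.185 and 0.351 CPM and Ltbp2 at 0.992 and 2.03 CPM. Fbn1 was nearly level in that pair. The part of such tissue in the Penk result was not tested.

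**Figure D5:**
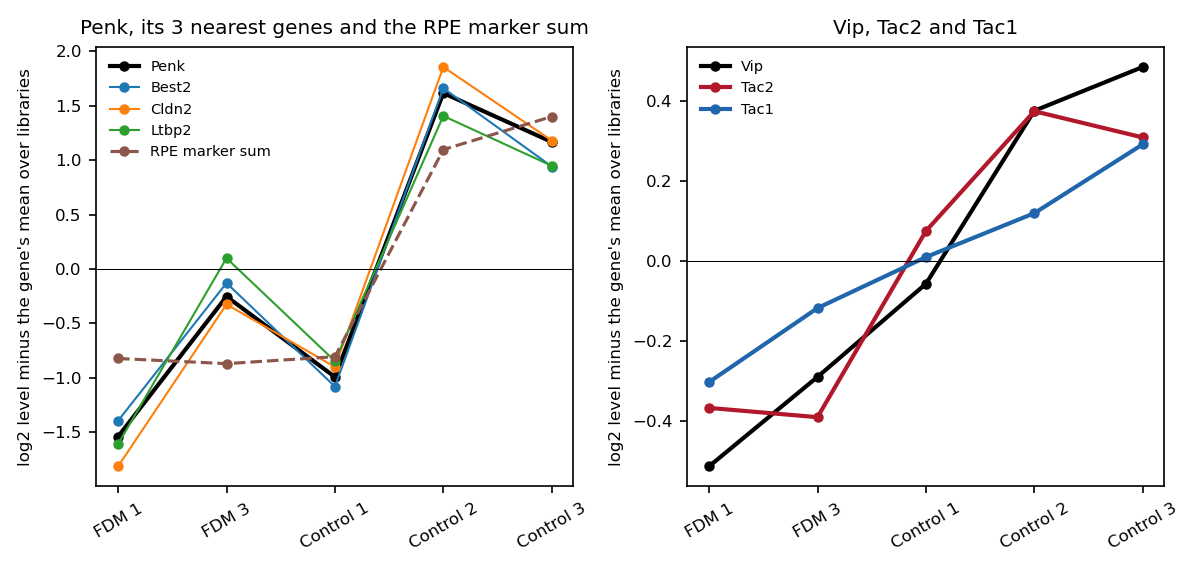
Centred log2 level (y axis) in the 5 libraries (x axis). The left panel holds Penk, the 3 tested genes whose values were nearest to it and the RPE marker sum (dashed). The right panel holds Vip, Tac2 and Tac1, and lines only join points. Every gene drawn is highest in Control 2 and Control 3. Vip, Tac1 and Tac2 are lowest in the FDM libraries, while Penk, Best2, Cldn2 and Ltbp2 are lowest in FDM 1 and Control 1.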

How the data were processed

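RNA of 5 retinas was sequenced by the authors from poly-A TruSeq libraries. Per the labels, reads were trimmed with Trimmomatic 0.39 and quantified with Salmon 1.10.1 on GRCm38 in R 4.3.1. The authors deposited estimated counts per gene, as whole numbers, and a signal of normalized counts, used here only for alternatives. Members and gene lists were chosen with earlier results of these data known.

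The 17432 of 33636 genes for which 2 or more libraries held over 10 counts were fitted with edgeR 4.0.16 in R 4.3.3 (TMM, quasi-likelihood, no covariate, after the study's 2-group design). Standard errors are the fold change over the square root of F. The p-values measure the spread among these samples only. Alternatives used DESeq2 1.42.0, limma 3.58.1 on the authors' normalized counts (pseudocounts of 1 and 0.1), the authors' factors, other filters, a mouse block and each library left out. Pairing follows the design, in which each mouse gave a goggled and an open eye, with the numbers of the count columns. Deviations from group means correlated across genes at 0.258 for FDM 1 with Control 1 and 0.125 for FDM 3 with Control 3, and at 0.155 for FDM 3 with Control 2. With 2 FDM libraries these deviations mirror each other. Each value for FDM 3 is thus that of FDM 1 with the sign reversed, and it cannot decide the pairing of FDM 3. Named genes were all members and, in each other list, up to 6 genes called and the 2 highest by mean CPM, with the highest receptor per peptide and the 3 genes nearest to each called member. One gene that this rule names is not reported here. On simulated counts for the 17432 genes, edgeR called 80% of genes changed 1.5-fold and 4.97% of unchanged ones. The simulated libraries were independent, with trended dispersions and no shared mouse, while 1.61% of all genes were called in the real ones. The 80% is therefore not the power of the test on these libraries. Positions are from GENCODE M21 on GRCm38, and promoter sequences from RefSeq on GRCm38.p6. The authors' own comparisons were not used.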

Additional observations from a re-analysis of the deposited data

How the results depend on the processing

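The number of members called was 4 and lay between 2 and 5 in the 14 alternatives. It was 3 in DESeq2 and in limma with either pseudocount, and 2 to 4 with a library left out, the lowest without Control 3. With 1 FDM library left, that sample was assumed to vary like the control eyes. Tac2 and Vip were called in every alternative run. No called value changed direction in these alternatives.

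The receptors called (3) became 1 in DESeq2 and 0 to 2 with a library left out. The processing and storage genes called (1) became 2 with the authors' factors, and 0 to 2 with a library left out. The further neuropeptides called (0) became 1 without the count filter, and 0 to 3 with a library left out, the highest without Control 1. The amacrine markers called (0) became 1 with the authors' factors and in limma with either pseudocount, and 0 to 2 with a library left out. Shares of all genes called were not computed for limma, the authors' factors or the fit without the count filter, so those counts have no background. The causes were not tested.

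With the replicate block by mouse, the pairing called 5 members, 2 receptors, 3 processing genes, 2 further neuropeptides and 2 amacrine markers. Of all genes, that fit called 7.23% in either direction and 3.67% lower. With the replicate block by label numbers, the counts in the same order were 4, 2, 0, 2 and 0, without a share of all genes to set beside them. Among members, Sst was called with the label numbers, and Tac1 and Cck were not. Either block leaves 1 residual degree of freedom.

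With 2 FDM libraries, the test without a block called neither Npy nor Cck, and Crh, at 37 to 57 counts, was limited by counting error.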
